A study of Rattus norvegicus with 6 samples.

Results

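The 10 genes described here belong to the BCL2 family, the proteins that decide whether a cell keeps or loses the integrity of its mitochondrial outer membrane. They were chosen by symbol: *Bcl2*, *Bcl2l1* and *Mcl1* among the survival genes, *Bax* and *Bak1* among the pore-forming death genes, and *Bid*, *Bad*, *Bcl2l11*, *Bbc3* and *Pmaip1* among the BH3-only genes. All 10 were on the array, out of 17960 genes named there by a RefSeq symbol. They had 19 probes and 21 spots of the 45598 non-control probes and 58717 non-control spots. The comparison asked how the RNA of these genes differed between β-cells that had copied their DNA and β-cells of the same islets that had not.

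The cells came from islets of young adult male Wistar rats. Each of 3 islet preparations pooled 4 rats and gave 1 array of replicating β-cells, positive for the thymidine analogue EdU, and 1 array of quiescent β-cells, negative for it. Both groups had been through the same overnight culture with EdU, dispersion, labelling with the zinc dye Newport Green, paraformaldehyde fixation, saponin permeabilization and click reaction, and were gated on size, granularity and Newport Green before they were divided by EdU. Neither group therefore stands for β-cells that were never cultured, exposed to EdU or fixed. Since EdU stays in the DNA, the positive gate may also hold cells that had finished dividing. The study collected far fewer replicating than quiescent cells per pancreas and obtained less RNA from them. The RNA put into amplification for each array is not given, and an effect of it cannot be told apart from the comparison.

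In the intrinsic pathway of apoptosis, BAX and BAK1 form pores in the outer membrane of mitochondria and let cytochrome c out. BCL2, BCL-XL (the product of *Bcl2l1*) and MCL1 hold them back, and the BH3-only proteins either bind these guards or act on BAX and BAK1 directly. In β-cells, BCL-XL and MCL1 are known as survival factors, and BIM (*Bcl2l11*) and PUMA (*Bbc3*) as mediators of death under stress and cytokines. Several of these proteins are regulated by cleavage, phosphorylation or degradation, which an RNA array does not measure.

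An array reads a gene through probes of 60 bases, and 5 of the 10 genes had more than 1 probe. The sequences of 5 probes are given, 4 from *Bcl2l11*, *Mcl1* and *Bax*, whose probes gave unlike ratios, and the representative probe of *Bcl2l1*. Positions are those of the array files on the rat build rn4. The *Bcl2l11* probes A_44_P508055 (chr3:115722606-115722665, plus strand) and A_44_P1088291 (chr3:115722642-115722701, plus strand) overlap by 24 bases, written in capitals, and the latter ends on the stop codon of an open frame.

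A_44_P508055: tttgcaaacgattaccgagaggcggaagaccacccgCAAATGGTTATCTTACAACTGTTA

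A_44_P1088291: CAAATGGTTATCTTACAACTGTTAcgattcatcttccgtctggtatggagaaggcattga

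The *Mcl1* probe A_43_P12128 (chr2_random:2892597-2892656, minus strand) lies in the coding sequence. The *Bax* probe A_44_P1164081 (chr1:95933023-95933082, minus strand) ends on the stop codon, and the *Bcl2l1* probe A_44_P548065 (chr3:143178503-143178562, minus strand) begins at an ATG. Both codons are in capitals.

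A_43_P12128: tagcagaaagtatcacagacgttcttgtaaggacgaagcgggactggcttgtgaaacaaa

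A_44_P1164081: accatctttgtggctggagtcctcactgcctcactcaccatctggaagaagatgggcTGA

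A_44_P548065: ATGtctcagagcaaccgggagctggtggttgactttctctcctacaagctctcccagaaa

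The quiescent array of preparation 2 stood apart most, and that of preparation 1 to a lesser degree. For preparation 2, Pearson's r with the other arrays over all probes lay between 0.654 and 0.830. The quiescent array of preparation 1 had an r of 0.867 to 0.887 with the remaining arrays, which had 0.943 to 0.986 among themselves. The quiescent array of preparation 2 had 1583 spots marked as outliers against 252 to 299 elsewhere, and 98.5% of its probes were well above background, against 96.4% on the quiescent array of preparation 1 and 80.8% to 87.3% elsewhere. None of the 21 spots of the 10 genes was marked, and no spot was saturated. The sort itself was visible in the RNA, since 4 of 4 genes of cycling cells (*Mki67*, *Top2a*, *Cdk1*, *Pcna*) were called higher in the replicating samples by the threshold given below. Over 1 probe per named gene 5.63% were called higher. On the quiescent array of preparation 2, however, *Mki67* read 12.23, close to the 12.28 to 12.86 of the replicating samples. There *Top2a*, *Cdk1* and *Pcna* read 7.19, 7.95 and 8.25, against at least 10.42, 11.42 and 10.68 in the replicating samples. The 10 measured β-cell markers, *Ins1*, *Ins2* and *Pdx1* among them, were well above background on all 6 arrays, but so were all measured alpha, delta and PP, acinar and endothelial markers, so this does not check the label of the cells.

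Values below are the deposited log2 values, and a log2 ratio is replicating over quiescent. Where a gene has several probes, the one brightest on average over the 6 arrays represents it. Levels of different probes cannot be set against each other on an array. A probe is called when its unadjusted p in limma, fitted with the islet preparation as a block, is at most 0.05 and its log2 ratio is at least 1 in size, the thresholds of the study. As sorted pools were compared, a change in the share of cells that carry a transcript and a change in the amount per cell cannot be told apart.

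By the representative probes, 0 of the 10 genes were called in either direction. Over 1 probe for each of 17960 named genes 5.63% were called higher and 2.76% lower, and over all probes 4.44% and 4.18%. No probe of the array, 0% of 45598, had a Benjamini-Hochberg adjusted p in limma under 0.05, and 9.60% (4379 probes) had an unadjusted p of at most 0.05. Over all 19 probes of the genes, 2 were called higher and 0 lower. These were the coding probe of *Mcl1* and the downstream one of the overlapping *Bcl2l11* probes. Without preparation 2, 1 probe was called higher, the other *Mcl1* probe, against 3.17% of all probes. Without preparation 1 none of the 19 was called, against 1.14% of all probes higher and 0.138% lower. Without preparation 3 there were 2 called higher and 1 called lower, a *Bad* probe, where 11.2% and 12.4% of all probes were called. Which probes passed thus differed with the preparations used. A fit without 1 preparation has fewer arrays, and a call can be lost with little change in the ratio. The coding *Mcl1* probe had a ratio of 1.19 both with all preparations and without preparation 1.

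The median log2 ratio of the 10 genes was 0.27, with 6 above 0 and 4 below, against -0.07 over all probes tested and -0.00 over 1 probe for each of 17960 named genes. In preparation 1, 2 and 3 the median of the 10 was 0.33, 0.17 and -0.00. By role, the median was 0.22 for the 3 survival genes, 0.55 for the 2 pore-forming genes and -0.17 for the 5 BH3-only genes. *Pmaip1* was at background in the replicating samples. With it set there to the lowest signal well above background, the medians of the 10 and of the BH3-only genes were the same. Without it they were 0.32 over 9 and 0.09 over 4 genes. A list chosen with results known was given no test. Leaving out preparation 2 brought the median of the 10 to 0.07.

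**Figure D1:**
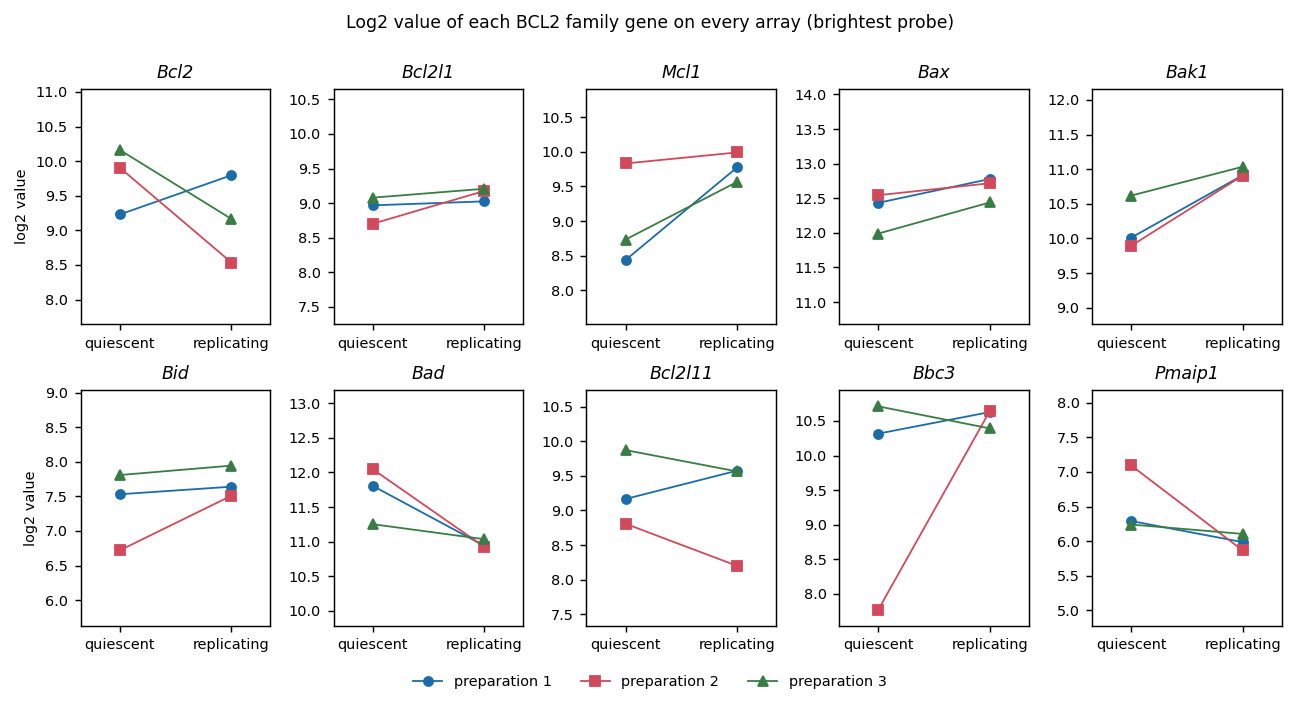
Deposited log2 value of the representative probe of each of the 10 genes (y axis) in quiescent and replicating β-cells (x axis); each line joins both samples of an islet preparation, every panel spans the same number of log2 units, and Pmaip1 was at background on all replicating arrays. Bak1 and Bad are the genes well above background on all arrays whose groups do not overlap, with Bak1 higher and Bad lower in replicating cells, and the preparation 2 line of Bbc3 starts at 7.77, far below the other quiescent samples.

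Among the survival genes, *Mcl1*, whose short-lived product holds BAK1 in check, had the largest ratio. Its representative probe read 9.78, 9.99 and 9.57 in replicating and 8.44, 9.83 and 8.73 in quiescent cells of preparations 1, 2 and 3. Quiescent cells of preparation 2 were level with the replicating samples, and the groups overlapped. The log2 ratio was 0.78 ± 0.37 (SE), above 0 in 3 of 3 preparations, with an unadjusted p of 0.0874 and an adjusted p of 0.475 in limma. Without preparation 2 it was 1.09 with an unadjusted p of 0.0311 (adjusted p 0.928), which passed the study's threshold.

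The coding probe of *Mcl1*, shown above, read 9.34, 9.55 and 9.12 in replicating and 8.17, 7.61 and 8.66 in quiescent cells. All replicating values were above all quiescent ones. Its log2 ratio of 1.19 ± 0.40 (SE, 95% interval 0.16 to 2.21) was called, with an unadjusted p of 0.0308 and an adjusted p of 0.475 in limma. The call was lost without preparation 1 (1.19, unadjusted p 0.136) and without preparation 2 (0.81, unadjusted p 0.0924). The probes start 1136 bases apart on the genome, the representative one on the 3′ side. In preparations 1 and 3 their ratios differed by 0.17 and 0.38, and in preparation 2 by 1.78, the coding probe giving 1.94 and the other 0.16. Both values rest on the quiescent array that stood apart most, where the coding probe had its lowest reading and the other probe its highest of the quiescent samples.

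*Bcl2l1* encodes BCL-XL. Its probe at the ATG read 9.03, 9.18 and 9.21 in replicating and 8.97, 8.70 and 9.08 in quiescent cells. The groups overlapped, with ratios of 0.06, 0.47 and 0.13. The fitted ratio was 0.22 ± 0.31 (SE) and its 95% interval ran from -0.57 to 1.01, so a fold change just over 2 in the replicating cells would still lie inside it. The other 3 probes gave -0.08, 0.12 and 0.11, each with ratios on both sides of 0 among the preparations. A_64_P054730 and A_44_P1085814 have the same 60 bases, and their values on an array differed by a median of 0.151 and at most 0.339 log2 units, which shows how finely a single spot repeats here.

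*Bcl2*, the gene that gave the family its name, read 9.80, 8.54 and 9.16 in replicating and 9.23, 9.90 and 10.16 in quiescent cells. Replicating cells were higher in preparation 1, by 0.57, and lower in preparations 2 and 3, by 1.37 and 1.00 log2 units. The fitted ratio of -0.60 ± 0.48 (SE, 95% interval -1.81 to 0.62) did not pass (unadjusted p 0.262, adjusted p 0.562 in limma). Without preparation 1 it was -1.18 (unadjusted p 0.0933), and without preparation 2 it was -0.215 (unadjusted p 0.674). The single *Bcl2* probe has a G and C content of 28.3%, the lowest of the 19.

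Of the pore-forming genes, *Bak1* read 10.91, 10.91 and 11.04 in replicating and 10.01, 9.89 and 10.62 in quiescent cells. All 3 replicating samples were above all 3 quiescent ones, and the replicating samples had an SD of 0.0722 against 0.389 in the quiescent ones. The ratios were 0.90, 1.02 and 0.42. The fitted ratio of 0.78 ± 0.32 (SE, 95% interval -0.04 to 1.60) missed the threshold on both counts, with an unadjusted p of 0.059 and an adjusted p of 0.475 in limma. It kept its sign without any 1 preparation, from 0.66 to 0.96.

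*Bax* was read by probes 128 bases apart. The representative one, on the 3′ side, read 12.78, 12.72 and 12.44 in replicating and 12.43, 12.54 and 11.99 in quiescent cells, with ratios of 0.34, 0.17 and 0.45. The probe ending on the stop codon read 11.35, 11.04 and 11.27 in replicating and 11.82, 11.47 and 11.04 in quiescent cells, with ratios of -0.47, -0.43 and 0.22. The neighbouring probes thus had opposite signs in preparations 1 and 2. Fitted ratios were 0.32 ± 0.31 and -0.23 ± 0.33 (SE), with unadjusted p of 0.338 and 0.527 (adjusted p 0.618 and 0.753 in limma). Each *Bax* probe was printed on 2 spots, which differed in level on an array by a median of 0.0954 and 0.0763 and at most 0.115 and 0.281 log2 units. The ratios of the probes differed by 0.81, 0.60 and 0.23 in preparations 1, 2 and 3.

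**Figure D2:**
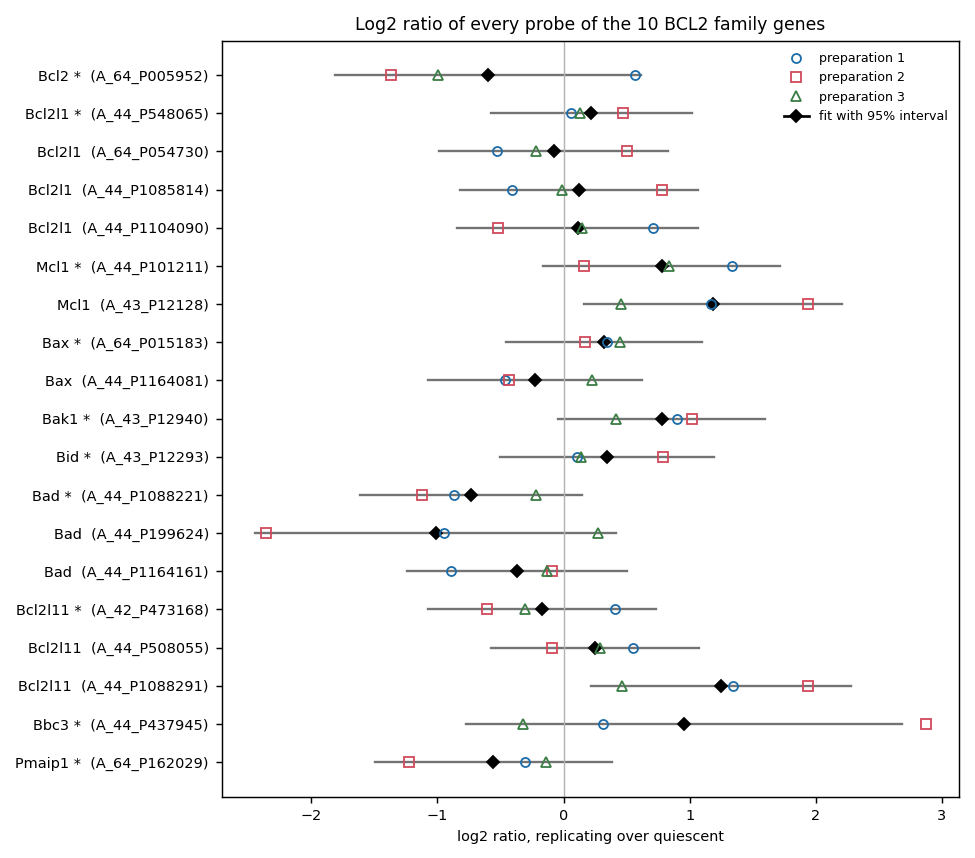
Log2 ratio of replicating over quiescent cells (x axis) for all 19 probes (y axis), with a point for each islet preparation and the limma estimate with its 95% interval; an asterisk marks the representative probe of a gene, and the Pmaip1 row is nominal because its probe was at background on the replicating arrays. The intervals of 2 probes, A_43_P12128 of Mcl1 and A_44_P1088291 of Bcl2l11, lie wholly above 0, and preparation 2 gives the point farthest from 0 in 12 of 19 rows, as it did for 61.0% of all probes.

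Of the BH3-only genes 2 were above 0 and 3 below. *Bad*, whose product binds BCL2 and BCL-XL unless it is phosphorylated by survival kinases, was the lowest of the 10 by ratio. Its representative probe read 10.94, 10.93 and 11.04 in replicating and 11.81, 12.05 and 11.25 in quiescent cells. All replicating values were below all quiescent ones. The fitted ratio was -0.74 ± 0.34 (SE, 95% interval -1.61 to 0.14), below 0 in 3 of 3 preparations, with an unadjusted p of 0.0847 and an adjusted p of 0.475 in limma.

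The other *Bad* probes also gave ratios under 0, -1.01 and -0.37. The former, A_44_P199624, read 9.69, 9.72 and 9.60 in replicating and 10.64, 12.08 and 9.32 in quiescent cells. The quiescent sample of preparation 2 was the farthest out, and preparation 3 had the opposite sign, 0.27. Without preparation 3 this probe was called lower (-1.66, unadjusted p 0.0293, adjusted p 0.186 in limma), and without preparation 2 its ratio was -0.34.

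*Bcl2l11* encodes BIM, which binds every survival protein of the family. The representative probe read 9.58, 8.20 and 9.56 in replicating and 9.17, 8.81 and 9.87 in quiescent cells, with a fitted ratio of -0.17 ± 0.36 (SE, unadjusted p 0.654, adjusted p 0.835 in limma). The groups overlapped and the preparations differed in sign. It lies 3923 bases to the 3′ side of A_44_P1088291, the probe that ends on a stop codon.

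That probe read 7.85, 8.06 and 7.82 in replicating and 6.51, 6.12 and 7.36 in quiescent cells. All replicating values were above all quiescent ones, and the ratio of 1.25 ± 0.40 (SE, 95% interval 0.22 to 2.28) was called (unadjusted p 0.0259, adjusted p 0.475 in limma). The call was lost without preparation 1 (1.20, unadjusted p 0.135) and without preparation 2 (0.90, unadjusted p 0.072). A_44_P508055, which shares 24 of its 60 bases and starts 36 bases upstream, read 8.14, 8.01 and 7.92 in replicating and 7.59, 8.10 and 7.64 in quiescent cells. Its ratios were 0.55, -0.09 and 0.29, and the fitted ratio was 0.25 ± 0.32 (SE, unadjusted p 0.477). Over the 3 *Bcl2l11* probes the ratio in preparation 2 ranged by 2.55 log2 units, the widest spread of any of the 10 genes, against 0.93 in preparation 1 and 0.77 in preparation 3.

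**Figure D3:**
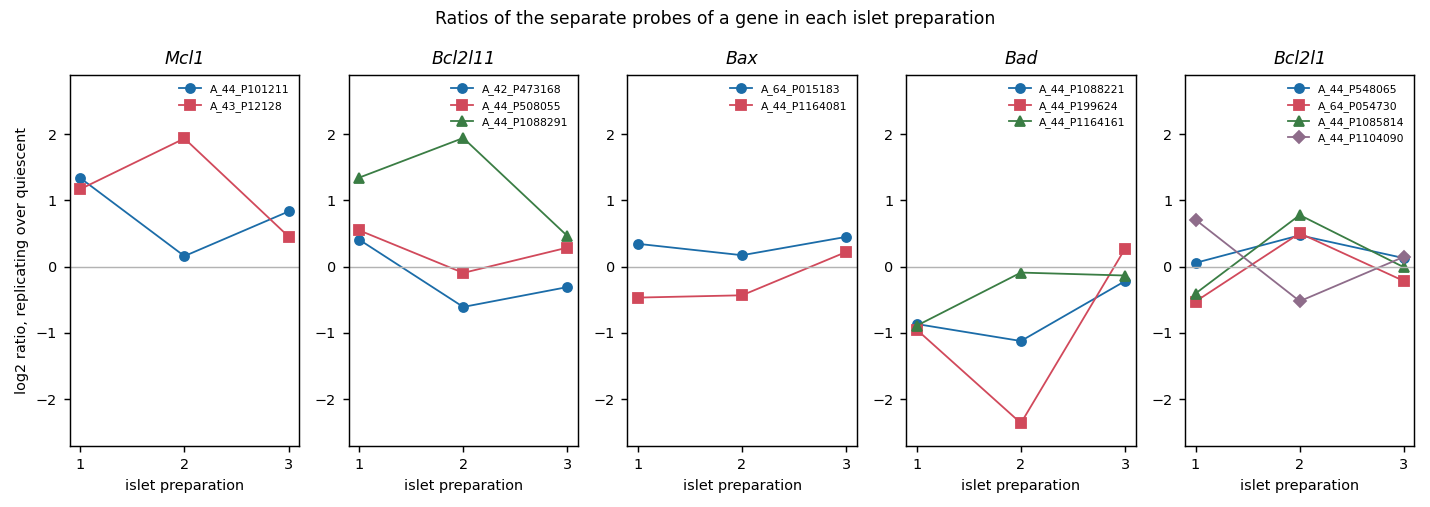
Log2 ratio of replicating over quiescent cells (y axis) in islet preparations 1 to 3 (x axis) for every probe of the 5 genes with more than 1 probe; lines join the values of a probe and stand for no order of the preparations. Probes of Mcl1, Bad and Bcl2l11 lie farthest apart in preparation 2, by 1.78, 2.27 and 2.55 log2 units, and the Bax probes have opposite signs in preparations 1 and 2.

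*Bbc3*, which encodes PUMA, depended on preparation 2 more than any other of the 10 genes. It read 10.63, 10.65 and 10.39 in replicating and 10.32, 7.77 and 10.71 in quiescent cells. The replicating samples lay close together (SD 0.142), while a single quiescent sample was low (SD 1.59 over the 3). The fitted ratio was 0.96 ± 0.68 (SE, 95% interval -0.77 to 2.68), with an unadjusted p of 0.217 and an adjusted p of 0.529 in limma. Without preparation 2 it was -0.00 (unadjusted p 0.994). The array files give no genome position for this probe.

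*Bid* encodes the substrate through which caspase-8 links death receptors to mitochondria. It read 7.64, 7.51 and 7.94 in replicating and 7.53, 6.72 and 7.81 in quiescent cells. The ratios were 0.11, 0.79 and 0.14, so that preparation 2 carried most of the fitted ratio of 0.35 ± 0.33 (SE, unadjusted p 0.345, adjusted p 0.623 in limma).

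*Pmaip1*, which encodes NOXA, a partner of MCL1, was close to background. Its signal was well above background on 0 of 3 replicating arrays and 2 of 3 quiescent arrays. It read 5.99, 5.87 and 6.11 in replicating and 6.29, 7.09 and 6.24 in quiescent cells. Set against the mean of the lowest signals well above background on the replicating arrays, the quiescent mean was 1.21-fold higher. That mean includes the quiescent array of preparation 3, where the gene was not well above background. The 1.21-fold value itself was not tested. The limma fit of the nominal values gave a log2 ratio of -0.56 ± 0.37 (SE, unadjusted p 0.189, adjusted p 0.513). A lower level in the replicating cells was thus not established. The 1.21-fold value also rests on the quiescent array of preparation 2. Without that preparation the quiescent mean was 0.07 log2 units above the floor, and of the 2 quiescent arrays left only that of preparation 1 was well above background. In the counts, medians and plots of the 10 genes *Pmaip1* enters with its nominal values.

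Ratios above 0 in all 3 preparations were found for 5 of the 10 genes (*Bcl2l1*, *Mcl1*, *Bax*, *Bak1*, *Bid*) and 7 of the 19 probes, where the background was 15.7% of all probes. Ratios below 0 in all 3 were found for 2 genes (*Bad*, *Pmaip1*) and 3 probes, where the background was 20.5%. Without preparation 2 the counts of genes were again 5 and 2, against 22.3% and 28.7% of all probes. All replicating samples were above all quiescent ones for 1 gene (*Bak1*) and 3 probes, where the background was 9.01%, and below for 2 genes and 2 probes (*Bad*, *Pmaip1*), where it was 7.10%. Without preparation 2 these counts were 3 and 2 genes, against 16.7% and 18.6% of all probes. These shares are over all probes, not over 1 probe per gene.

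Replicating samples were more alike than quiescent ones. The SD over the 3 quiescent samples exceeded that over the 3 replicating samples in 17 of the 19 probes, with a median SD of 0.481 against 0.166. All probes of the array showed the same, with the quiescent SD larger in 85.8% and medians of 0.647 against 0.216. The quiescent sample of preparation 2 was the farthest of the 6 from the others in 10 of the 19 probes, against 58.0% of all probes. The SD of a group is therefore no property of these genes in particular, and the intervals above carry the spread of the quiescent samples.

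**Figure D4:**
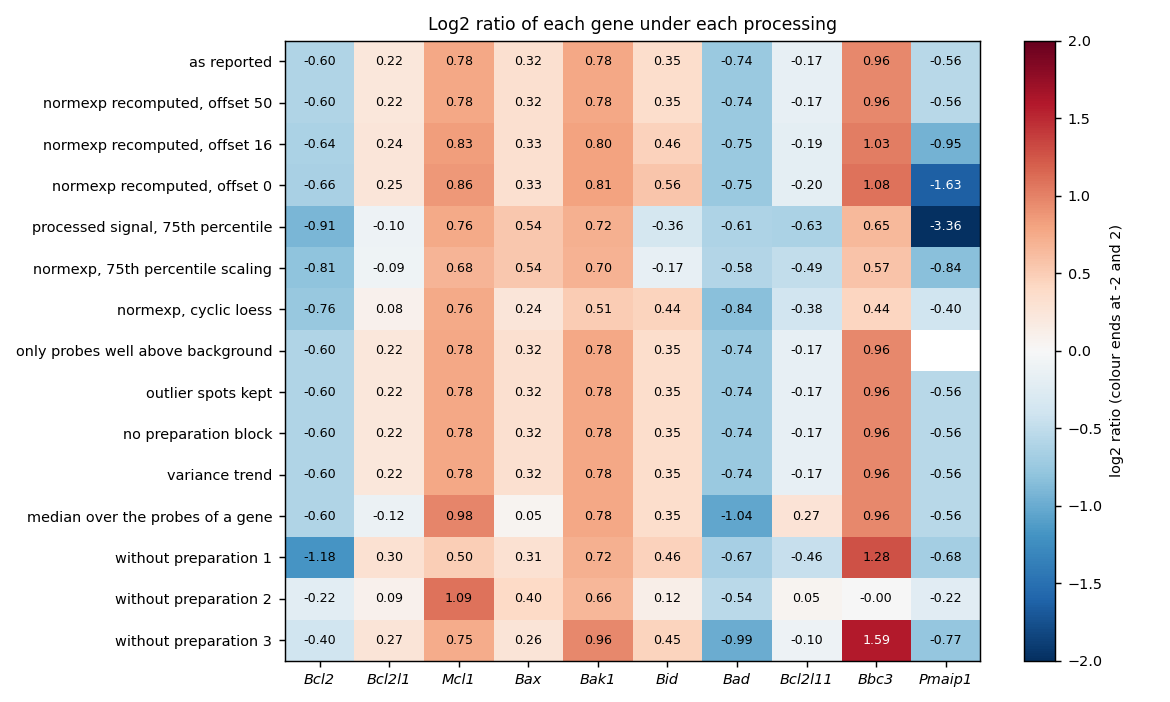
Log2 ratio of the representative probe of each of the 10 genes (columns) as reported and under each other processing (rows), printed in every cell and coloured from blue (lower in replicating cells) to red (higher); Pmaip1 was at background on the replicating arrays, so its column is nominal, and it is blank where dim probes were left out. Mcl1, Bax and Bak1 are above 0 and Bcl2, Bad and Pmaip1 below 0 in every row with a value, while Bcl2l1, Bid, Bcl2l11 and Bbc3 change sign in at least 1 row.

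Further genes of the same pathway were taken from 7 lists. Of 54 listed genes 52 were on the array. Of these 33 were above 0 and 19 below, 9 were called higher and 0 lower, and the median log2 ratio was 0.43. Over 1 probe per named gene the median was -0.00. In preparations 1, 2 and 3 the median of the further genes was 0.39, 0.69 and 0.08, so it was largest in preparation 2 and small in preparation 3. For 1 probe per named gene over the whole array, 5.63% were called higher and 2.76% lower. The called genes included *Bok*, *Bcl2l13*, *Casp6*, *Pim1*, *Fas*, *Fadd*, *Mdm2* and *Cdkn1a*. Each of these had an adjusted p of 0.475 in limma. Without preparation 1, 2 or 3 in turn, 2, 5 and 8 of the 9 were still called, and only *Fas* and *Cdkn1a* were called each time.

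Within the family itself, *Bok*, a relative of BAX and BAK1, read 11.79, 12.44 and 12.15 in replicating and 9.87, 11.61 and 9.83 in quiescent cells. All replicating values were above all quiescent ones, and its ratio of 1.69 ± 0.41 (SE, unadjusted p 0.00848) was the largest of the family genes measured above background. *Bcl2l13*, a mitochondrial member of the family, had a ratio of 1.16 ± 0.42 (SE, unadjusted p 0.0377), with 1.63, 1.63 and 0.23 in the 3 preparations. Of the survival genes *Bcl2l2* (BCL-W) had a ratio of -0.48, *Bcl2l10* -0.09 and *Bcl2l12* -0.06, none of them past the threshold. *Bcl2a1* was well above background on 0 replicating arrays and 1 quiescent array, and *Bcl2l15* likewise, so no ratio is given.

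The remaining family genes did not pass either. The BH3-only genes *Bmf*, *Bik* and *Hrk* had ratios of -0.30, 0.59 and 0.08. *Bcl2l14* had 0.30, the mitophagy receptors *Bnip3* and *Bnip3l* 0.98 and 0.60, and the autophagy gene *Becn1* -0.13. For *Bnip3* the ratio was 0.29, 3.28 and -0.62 in the 3 preparations, so that it too rested on preparation 2.

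Among the regulators of the response to DNA damage, *Cdkn1a* and *Mdm2* were called higher. *Cdkn1a*, the p21 inhibitor of cyclin-dependent kinases, read 11.77, 11.60 and 12.51 in replicating and 10.45, 8.46 and 11.26 in quiescent cells, with a ratio of 1.91 ± 0.49 (SE, unadjusted p 0.0109). *Mdm2*, which encodes a ubiquitin ligase, had a ratio of 1.78 ± 0.63 (SE, unadjusted p 0.0352), with 1.68, 3.36 and 0.30 in the 3 preparations. The BCL2 family genes known to be induced by DNA damage, with ratios of 0.32 for *Bax* and 0.96 for *Bbc3* and with *Pmaip1* at background, were not called.

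In the death receptor arm 2 of 7 genes were called higher, against 5.63% over 1 probe per named gene. *Fas*, the receptor, read 10.62, 10.56 and 10.01 in replicating and 8.61, 7.45 and 8.99 in quiescent cells, so that the groups were more than 1 log2 unit apart at their nearest. Its ratio was 2.05 ± 0.48 (SE, unadjusted p 0.00767). *Fadd*, its adaptor, had a ratio of 1.16 ± 0.41 (SE, unadjusted p 0.0346). In the list of the apoptosome and the caspases, the caspase gene *Casp6* was called higher (1.04 ± 0.40, SE). Its ratio in preparation 3 was small, 0.19. Of 10 genes for turnover and partners of MCL1, BAK and BAD 1 was called higher, *Pim1* (1.44 ± 0.42, SE), a kinase that phosphorylates BAD. Of 7 genes for inhibitors of apoptosis and their antagonists 0 were called, and none of the 7 had an unadjusted p of at most 0.05 in limma. Over all probes 9.60% had such a p. In lists this short, 1 of 10 and 0 of 7 called are near the share over named genes.

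**Figure D5:**
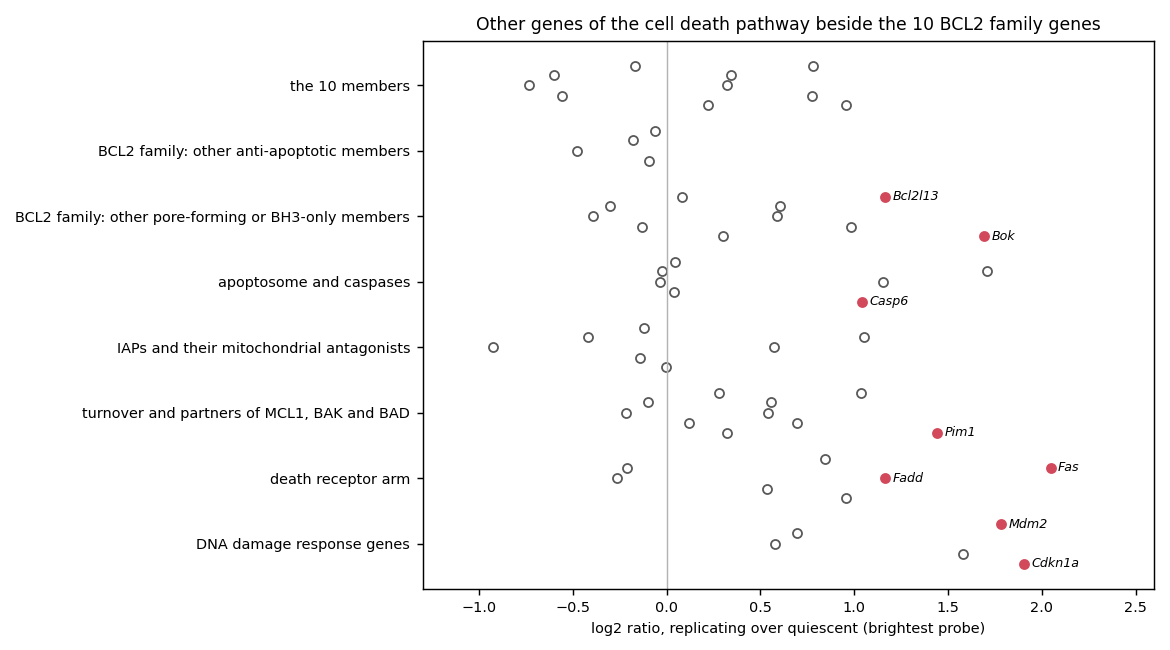
Log2 ratio of replicating over quiescent cells (x axis) for the representative probes of the 10 genes and of 7 further lists (y axis), spread vertically only to keep points apart; filled red points with names are called higher, and not every gene of the lists is drawn. The named genes all lie at or above 1, Fas farthest at 2.05, while the 10 genes of the top row lie between -0.74 and 0.96 with none called; Pmaip1, Bcl2a1, Bcl2l15 and Huwe1 were at background on the replicating arrays and their points are nominal.

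Markers of other cells also differed between the groups. Of the 6 alpha cell markers 5 were above 0 and 2 were called higher, *Gcg* by 2.39 among them, and the mean log2 value of the list was 9.27 to 10.18 in replicating and 8.20 to 9.11 in quiescent samples. Of the 8 fibroblast and stellate cell markers all were above 0 and 3 were called higher (*Col1a2*, *Col3a1*, *Vim*), with list means of 9.27 to 10.40 against 8.44 to 8.51. For delta and PP cells 2 of 3 markers were called higher, for acinar cells 1 of 6, for duct cells 1 of 5, for leukocytes 1 of 6 and for endothelial cells 0 of 5. Over 1 probe per named gene 5.63% were called higher. In the same order of lists 3 of 3, 5 of 6, 1 of 5, 5 of 6 and 3 of 5 markers were above 0. The other 4 duct markers were thus below 0. Of the 10 β-cell markers 4 were above 0 and 6 below, with a median of -0.31, and *Mafa* was called lower at -1.01. In preparations 1, 2 and 3 the median of this list was -0.02, 0.24 and -0.57. The other cell types express BCL2 family genes too, and their part in the ratios above was not tested.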

How the data were processed

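Total RNA of 6 sorted samples was amplified to cDNA, which was labelled with Cy3 and hybridized to 1-colour Agilent arrays on 1 slide. The authors deposited the intensity values of each spot from Feature Extraction 10.7.3.1, not normalized between arrays, and a set of log2 values made from them by normexp and quantile normalization. The deposited log2 values were used; recomputing them from the intensities with normexp (offset 50) and quantile normalization gave the same within 0.000245. A probe belonged to a gene when the name in the array files equalled its symbol; all 10 symbols are in a RefSeq gene table of assembly GRCr8, which was used for names only. Control spots and spots marked as outliers did not enter, and repeated spots of a probe were averaged.

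Each probe was fitted with limma 3.58.1 in R 4.3.3 (lmFit, eBayes), and the files were read with the R package data.table (1.17.8). The study's methods name a paired fit, so the islet preparation entered as a block, and p-values were adjusted by Benjamini-Hochberg over all 45598 probes. The fit was tested on simulated data. The labels number the samples by replicate, and the methods sort both groups from each islet preparation; deviations of same-numbered arrays from their group means correlated at 0.0561, 0.242 and 0.258. All members and probes were to be named, and of the further lists every other BCL2 family gene and each called gene. Members and lists were chosen with earlier results of these data known. The number of arrays limits the precision. Some genes of the further lists enter the counts but are not reported by name here. The qPCR data were not analysed here.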

Additional observations from a re-analysis of the deposited data

How the results depend on the processing

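The settings tried were normexp offsets, Feature Extraction's processed signal, other scalings, a filter on dim probes, the outlier spots kept, a variance trend, no block, a gene's median over its probes and each preparation left out. *Mcl1*, *Bax* and *Bak1* stayed above 0 and *Bcl2* and *Bad* below 0 under all of them; *Pmaip1* did too but has no value where dim probes are left out. With the processed signal scaled to the 75th percentile, the median of all probes shifted from -0.07 to -0.712, 1 of the 10 genes was called (*Pmaip1*, not above background), their median was -0.230, 4 further genes were called, and the ratio was -0.101 for *Bcl2l1* and -0.359 for *Bid*. With normexp values scaled that way the shift was to -0.387, the median of the 10 genes was -0.130, *Bcl2l1* had -0.0936 and *Bid* -0.166; relative to the shift of all probes all of these are higher. Probes called higher and lower went from 2023 and 1905 to 662 and 3193 with the processed signal and to 1596 and 5862 with the scaled normexp values. By the median over probes *Mcl1* had 0.982 (unadjusted p 0.0272, adjusted p 0.475 in limma), just short of the ratio limit of 1. In that setting *Bad* had -1.04 (unadjusted p 0.109, adjusted p 0.479 in limma), *Bcl2l1* -0.124, *Bcl2l11* 0.266 and *Bax* 0.0485. The other *Bax* probe alone had -0.23 in the main fit, so the stable sign of *Bax* is that of its representative probe. Leaving out preparations in turn gave 0 to 1 of the 10 genes called (1, *Mcl1*, without preparation 2), a median of 0.0718 to 0.306, 2 to 12 further genes called, ratios of -0.458 to 0.0506 for *Bcl2l11* and of -0.00333 to 1.59 for *Bbc3*. Probes called higher and lower were then 518 and 63 without preparation 1, 1447 and 813 without preparation 2, and 5112 and 5633 without preparation 3. Without the replicate block, which ignores the pairing, 0 of the 10 genes and 7 further genes were called, with 1879 probes higher and 878 lower. The cause of these differences was not tested.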
